A study of Homo sapiens with 9 samples.

Results

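To describe what one siRNA against FIBP did to the transcriptome of lung cancer cells, H1299 cells transfected with Si-FIBP#1 were compared with H1299 cells transfected with the scrambled control siRNA (Scramble). H1299 is an established human line of non-small cell lung cancer, and RNA was taken 48 h after transfection. The comparison used 6 of the 9 RNA-seq samples of the series, 3 per group. The other samples were transfected with Si-FIBP#2, a second siRNA against the same mRNA, and are given only beside named genes. All samples are of the same line with transient transfection, and the labels give no other agent. The libraries were poly(A)-selected and sequenced from both ends, and the expression values were read as FPKM, fragments scaled to the length of the transcript and to the size of the library. This unit was taken from the values themselves, as the sources used here do not state it. Values were summed per gene, and a gene was kept if it reached 1 FPKM in at least 3 of the 6 samples, which held for 14382 of 60966 genes. The labels do not say that the 3 samples of a group came from separate cultures, so the p-values measure only the spread between these samples, which may be technical.

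FIBP encodes an intracellular protein that binds the acidic fibroblast growth factor FGF1. Cells that divide express their genes in waves. E2F factors raise the genes of DNA synthesis before S phase, and the DREAM and MuvB complexes act through CHR elements, often beside CCAAT boxes bound by NF-Y, on the genes of mitosis. Replication-dependent histone genes lie in clusters and give mRNAs that normally end in a stem-loop in place of a poly(A) tail. Metallothionein genes answer zinc through metal response elements bound by MTF1.

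Because the groups of genes described below include members of each of these classes, 4 promoters are shown here. ESPL1 stands for the mitotic genes that fell, MCM7 for the replication genes that fell, H2AC6 for the clustered histone genes that rose, and MT2A for the gene with the largest fall among abundant mRNAs. The sequences are from RefSeq (GRCh38.p14), run 5′ to 3′ on the strand of the gene and cover 250 bases before to 50 bases after the start of the gene. ESPL1 lies at chr12:53268049-53268348, plus strand. The MCM7 window is chr7:100101348-100101647, minus strand. For H2AC6 it is chr6:26123922-26124221, plus strand, and for MT2A it is chr16:56608334-56608633, plus strand. Capitals mark matches to CCAAT, to the CHR letters TTTGAA or TTCGAA, to the E2F-type letters TTCCCGC, TTTGGCGC or TTTCGCGC, to the core of the metal response element (TGCGCNC or TGCACNC), all on both strands, and to TATAAA on the gene's own strand.
ESPL1: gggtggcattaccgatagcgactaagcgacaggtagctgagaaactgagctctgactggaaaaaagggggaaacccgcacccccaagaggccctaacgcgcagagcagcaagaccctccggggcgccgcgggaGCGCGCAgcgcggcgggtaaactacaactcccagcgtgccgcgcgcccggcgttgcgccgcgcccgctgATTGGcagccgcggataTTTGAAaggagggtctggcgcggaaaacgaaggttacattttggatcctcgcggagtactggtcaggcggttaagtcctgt
MCM7: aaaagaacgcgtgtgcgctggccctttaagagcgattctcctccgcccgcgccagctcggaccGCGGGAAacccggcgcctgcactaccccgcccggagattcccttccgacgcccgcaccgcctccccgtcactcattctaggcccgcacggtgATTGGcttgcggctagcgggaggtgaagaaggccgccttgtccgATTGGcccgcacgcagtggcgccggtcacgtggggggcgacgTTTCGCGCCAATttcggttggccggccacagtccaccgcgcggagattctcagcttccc
H2AC6: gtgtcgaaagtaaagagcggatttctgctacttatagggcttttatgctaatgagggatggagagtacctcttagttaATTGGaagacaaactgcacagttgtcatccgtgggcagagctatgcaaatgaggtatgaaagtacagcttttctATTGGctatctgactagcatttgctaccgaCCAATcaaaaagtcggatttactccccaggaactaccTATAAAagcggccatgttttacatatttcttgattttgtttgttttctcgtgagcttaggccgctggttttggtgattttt
MT2A: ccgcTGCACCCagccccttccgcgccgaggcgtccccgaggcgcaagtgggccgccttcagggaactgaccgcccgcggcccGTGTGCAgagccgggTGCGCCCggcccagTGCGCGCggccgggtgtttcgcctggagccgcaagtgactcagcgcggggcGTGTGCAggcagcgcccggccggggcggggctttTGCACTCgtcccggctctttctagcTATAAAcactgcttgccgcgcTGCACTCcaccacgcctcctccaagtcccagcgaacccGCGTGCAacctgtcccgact
The ESPL1 window held ATTGG, the reverse complement of CCAAT, at position -48 and TTTGAA at -31, counted from the start of the gene. It also held 1 match to the core of the metal response element, at -117. MCM7 held 3 matches to CCAAT and 2 to the E2F-type letters, of which TTTCGCGC and CCAAT share a base. H2AC6 held 3 matches to CCAAT and TATAAA at -31. MT2A held 8 matches to the core of the metal response element and TATAAA at -29. A match is a string of letters and not a measured binding site.

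Among the 11848 protein-coding genes tested, 9548 had a promoter in the RefSeq table. CCAAT was present in 37.5% of these, against 55.0% of the 347 matched genes called lower and 42.6% of the 197 called higher. The CHR letters were present in 10.8% of the tested genes, in 30.0% of those lower and in 11.7% of those higher. For the E2F-type letters the shares were 12.6%, 25.1% and 7.11%. TATAAA was present in 3.35%, 7.20% and 9.65%, and the metal response core in 39.6%, 40.9% and 30.5%. Over all 27305 promoters of the table, the shares were 35.7% for CCAAT, 16.6% for CHR, 7.59% for E2F-type, 7.71% for TATAAA and 29.4% for the metal response core. The E2F-type letters were found in 10 of the 13 matched DNA replication genes that fell (76.9%), the metal response core in 9 (69.2%), CCAAT in 6 (46.2%) and the CHR letters in 1 (7.69%). CCAAT was found in 21 of the 28 matched Cell cycle genes that fell (75.0%), the metal response core in 13 (46.4%), the E2F-type letters in 10 (35.7%) and the CHR letters in 9 (32.1%). Of 19 matched clustered histone genes that rose, 18 held CCAAT (94.7%), 12 held TATAAA (63.2%), 6 the E2F-type letters (31.6%), 5 the CHR letters (26.3%) and 3 the metal response core (15.8%). These shares are given as a description and were not tested.

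The depth was close between groups. From the steps of low FPKM values it was estimated at 20900000 to 22700000 fragments for Scramble and 20150000 to 23800000 for Si-FIBP#1. Of the summed FPKM, 11.4% to 11.6% in Scramble and 14.9% to 15.1% in Si-FIBP#1 lay in the top 10 genes. Markers of the line were checked in the 6 samples. VIM was at 2168 to 3369 FPKM, KRT18 at 193 to 483 and KRT8 at 71.2 to 108. Each was lower in every Si-FIBP#1 sample than in every Scramble sample. KRT7 was lower as well, at 7.51 to 9.32 FPKM in Scramble and 5.39 to 7.41 FPKM in Si-FIBP#1. CDH2 went the other way without overlap, from 12.8 to 13.7 FPKM in Scramble to 16.43 to 18.44 FPKM in Si-FIBP#1. FN1 overlapped between the groups, at 9.74 to 12.49 FPKM in Scramble and 10.61 to 15.08 FPKM in Si-FIBP#1. KRT18 was at 466.9 to 483.1 FPKM in Scramble and at 192.7 to 225.5 FPKM in Si-FIBP#1. CDH1, SFTPC, CD3E and CDH5 were listed at 0, and the markers EPCAM, KRT19, NKX2-1, SFTPB, NAPSA, PTPRC and PECAM1 stayed below 0.7 FPKM.

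FIBP (ENSG00000172500, chr11:65883741-65888539, minus strand, GRCh38) was checked first. It was at 88.38, 79.49 and 77.74 FPKM in Scramble and at 7.49, 7.77 and 4.30 FPKM in Si-FIBP#1. All 3 depleted samples lay far below all controls, and the mean fell from 81.9 ± 5.71 (SD, n = 3) to 6.52 ± 1.93 FPKM (SD, n = 3), which is 7.96% of the control. On the log2(FPKM + 1) scale the difference was -3.50 (SE 0.18, limma adjusted p = 9e-06). With Si-FIBP#2 the mean was 7.09 FPKM, and the siRNAs did not differ in FIBP beyond the spread (difference -0.13, adjusted p = 0.68).

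Depletion with Si-FIBP#1 changed genes in both directions. A gene was called if its mean changed by more than 2-fold on the log2(FPKM + 1) scale and its adjusted p was below 0.05. This held for 849 genes (5.90% of those tested), of which 381 were higher (2.65%) and 468 lower (3.25%). The side with more calls depended on the pseudocount, since 758 were higher and 654 lower with 0.1 in place of 1. Of the genes called higher, 75 were below 1 FPKM in every Scramble sample, and 21 of those called lower were below it in every Si-FIBP#1 sample, so that these passed the filter only through the group in which they were high. With the adjusted p alone, 7358 genes passed (51.2%), 4277 higher (29.7%) and 3081 lower (21.4%), with a median absolute difference of 0.48 among them. The 3 Si-FIBP#1 values did not overlap the 3 Scramble values for 8635 genes (60.0%), and 844 of the 849 called genes were among these. The median difference over all genes was 0.07, and 12 called genes, FIBP among them, fell and 14 rose by more than 4-fold. The plot of difference against level shows that called genes are found at all levels.

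The calls were also counted by class of gene. Of 11848 protein-coding genes, 247 were higher (2.08%) and 425 lower (3.59%). Of 1467 long noncoding RNA genes, 95 were higher (6.48%) and 17 lower (1.16%). Of these 95, 24 were below 1 FPKM in every Scramble sample. Of 591 pseudogenes 14 were higher (2.37%) and 15 lower (2.54%), near the shares over all genes. Among protein-coding genes split into 5 equal bins by the mean of the 6 samples, the share called higher went from 3.63% in the lowest bin to 1.14% in the highest. The share called lower went from 2.40% to 4.90%. The median control level was 4.04 FPKM for protein-coding genes called higher and 28.6 FPKM for those called lower, against 14.3 FPKM for all. In Si-FIBP#1 the medians of the same genes were 12.01, 10.7 and 14.5 FPKM, so the gap in the controls was not present in the depleted cells. These genes were chosen by the direction of the same difference, so nothing is read from these medians. Of the tested genes, 223 were assembled from the reads, and 21 of these were called.

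The 15 largest falls and the 15 largest rises are plotted by sample.

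**Figure D1:**
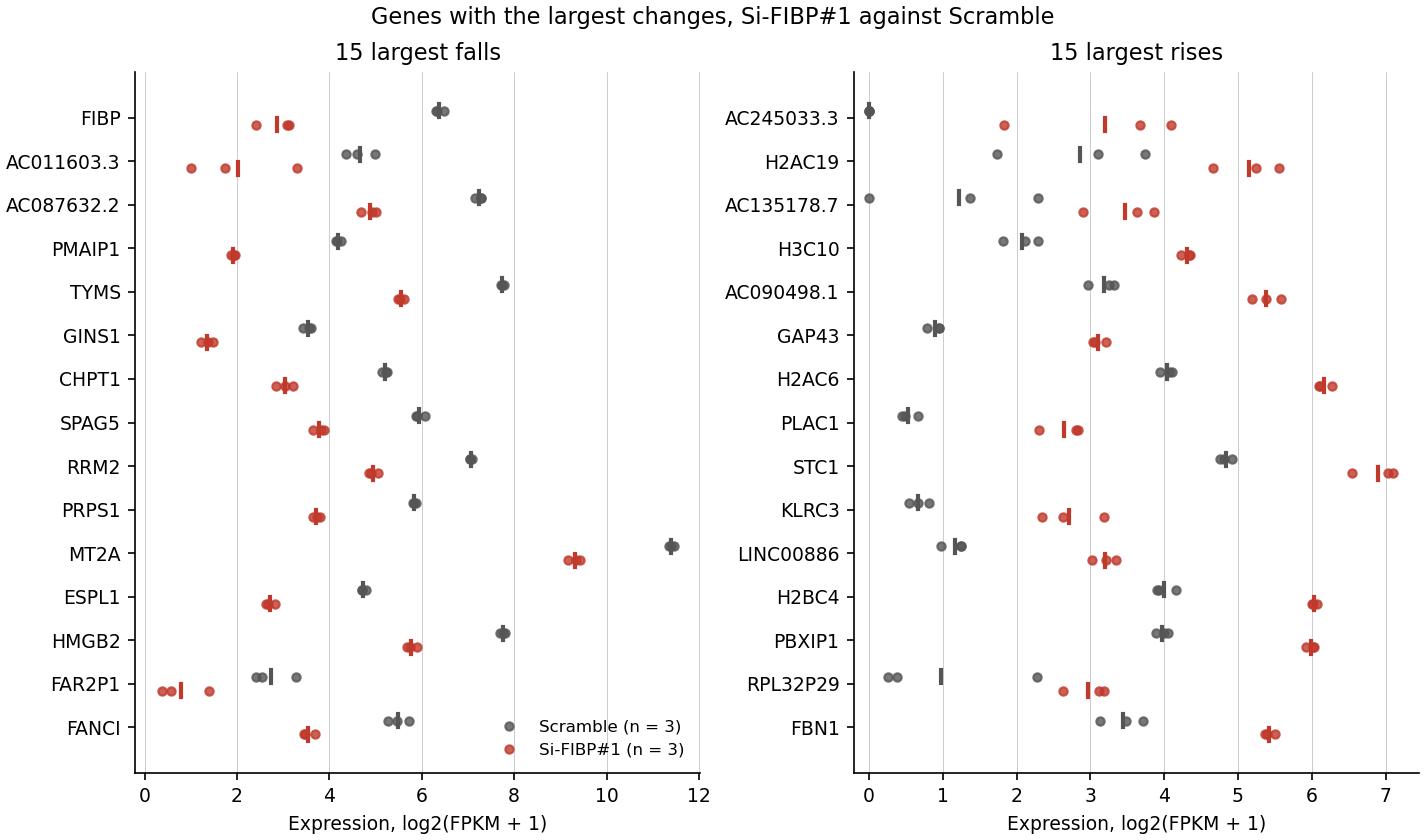
Expression in each sample, as log2(FPKM + 1), of the 15 genes with the largest fall (left) and the 15 with the largest rise (right). Points are samples, short lines are means of 3, grey is Scramble and red is Si-FIBP#1; genes were chosen so that the groups do not overlap, and all 3 Scramble samples of AC245033.3 are at 0.

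PMAIP1, which encodes the apoptosis inducer NOXA, was at 16.61, 18.14 and 17.04 FPKM in Scramble and at 2.81, 2.90 and 2.66 FPKM in Si-FIBP#1. The samples within each group lay close together, and the difference was -2.27 (SE 0.08, adjusted p = 2.1e-06). TYMS, which makes thymidylate from dUMP, went from 211.8, 209.25 and 219.4 FPKM to 44.04, 44.95 and 48.12 FPKM, a difference of -2.20 (SE 0.05, adjusted p = 8.5e-07). RRM2, the small subunit of ribonucleotide reductase, had means of 132 ± 2.84 and 29.7 ± 2.34 FPKM (SD, n = 3 each). PRPS1, which makes the ribose phosphate donor of nucleotide synthesis, had means of 56.1 ± 1.49 and 12.2 ± 0.727 FPKM. The mRNAs of TYMS, RRM2 and PRPS1 were at 21.4% to 22.4% of their control levels.

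GINS1, a subunit of the replicative helicase, was at 9.77, 10.8 and 11.12 FPKM in Scramble and at 1.32, 1.58 and 1.79 FPKM in Si-FIBP#1 (difference -2.18, adjusted p = 6e-06). ESPL1, the separase that opens cohesin rings at anaphase, was at 24.99, 24.99 and 26.65 FPKM against 6.04, 5.23 and 5.40 FPKM (difference -2.02, adjusted p = 2.8e-06). SPAG5, a protein of the mitotic spindle, fell by 2.16 on the log2 scale. HMGB2, a chromatin protein high in dividing cells, fell by 1.98, and FANCI, a partner of FANCD2 in repair of DNA crosslinks, fell by 1.95. CHPT1, which makes phosphatidylcholine, fell by 2.17, from a mean of 35.8 to 7.24 FPKM.

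Some of the largest values were in loci whose reads can be shared with a neighbour. AC011603.3 (difference -2.64) is an antisense gene that overlaps TUBA1B, which itself fell by 1.65, and it varied from 1.00 to 8.89 FPKM in the depleted samples. Whether the values used the strand of the reads is not given in the sources used here, so reads of the pair cannot be told apart. AC087632.2 (difference -2.36) overlaps PCLAF and CSNK1G1 on the same strand, and FAR2P1 (-1.96) is a pseudogene. On the side of the rises, AC245033.3 and AC090498.1 are pseudogenes that span 224 and 75 bases. AC245033.3, which passed the filter only through Si-FIBP#1, was listed at 0 in all Scramble samples and at 11.79, 2.56 and 16.03 FPKM in Si-FIBP#1. RPL32P29 (2.00) was at 0.20, 3.84 and 0.30 FPKM in Scramble, and AC135178.7 (2.25) was at 1.59, 0 and 3.90 FPKM.

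Of the 15 largest rises, 4 were histone genes and 4 were pseudogenes, and the rest were of other kinds. GAP43, a growth cone protein of neurons, was at 0.73, 0.94 and 0.94 FPKM in Scramble and at 7.19, 8.30 and 7.32 FPKM in Si-FIBP#1. It passed the filter only through the depleted samples, so its values are a description. STC1, a secreted glycoprotein hormone, rose from 29.36, 26.09 and 27.17 FPKM to 92.65, 135.64 and 129.61 FPKM (difference 2.06, adjusted p = 2.5e-05). FBN1, the main protein of extracellular microfibrils, rose from 10.2, 7.77 and 12.12 FPKM to 44.28, 41.08 and 40.12 FPKM (difference 1.98, adjusted p = 3e-05). PBXIP1 rose by 2.01 on the log2 scale from a mean of 14.8 to 62.5 FPKM. The noncoding LINC00886 rose by 2.04. The same limit as for GAP43 holds for PLAC1, a gene of the placenta, with means of 0.453 and 5.36 FPKM, and for KLRC3, a receptor gene of natural killer cells, with means of 0.597 and 5.77 FPKM.

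Abundant mRNAs also moved. MT2A, a metallothionein that binds zinc and copper, was at 2830.01, 2672.62 and 2609.34 FPKM in Scramble and at 686.48, 576 and 647.34 FPKM in Si-FIBP#1. It lost more FPKM than any gene, with a difference of -2.09 (SE 0.07, adjusted p = 1.9e-06). LGALS1, which encodes galectin-1, fell by 1.30 from a mean of 2018 FPKM, and TUBA1B, an alpha-tubulin, by 1.65 from 1660 FPKM. NME2, a nucleoside diphosphate kinase, fell by 1.03, and its difference was -0.97 without Si-FIBP#1 replicate 3, which ends the call. The cytoskeletal genes VIM (-0.49), ACTG1 (-0.52), ACTB (-0.60), PFN1 (-0.59) and TMSB10 (-0.35) and the glycolytic GAPDH (-0.48) were lower at an adjusted p below 0.05 but by less than 2-fold. These include genes that are often used as references.

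The genes were then read by KEGG maps, which are collections of genes drawn as pathways, as the authors assigned them. Of the tested genes, 6267 (43.6%) had a map, and 210 lower and 164 higher genes were among them. Of 293 maps with at least 15 tested genes, 141 had more lower than higher genes, 85 had more higher than lower, and 35 had no call. Maps share genes, and 1056 tested genes with a map are not annotated as protein-coding, so counts of protein-coding genes are given for some maps.

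The map with the lowest median was DNA replication, where 15 of 38 tested genes fell (39.5%), none rose and the median difference was -0.81. Over all genes 3.25% fell, 2.65% rose and the median was 0.07. With the adjusted p alone, 31 of the 38 were lower, against 21.4% of all genes. All 6 subunits of the MCM2-7 helicase, which unwinds DNA at the fork, fell by 1.13 to 1.75 on the log2 scale. MCM7 was at 338.12, 323.82 and 323.97 FPKM in Scramble and at 97.93, 97.35 and 95.96 FPKM in Si-FIBP#1, and MCM3, the least changed, had means of 98.3 and 44.4 FPKM. Of the GINS complex, which binds MCM2-7, 3 of 4 subunits fell. The sliding clamp PCNA (-1.44), the ligase LIG1 (-1.44), the flap nuclease FEN1 (-1.16) and RNASEH2A (-1.34), which act on Okazaki fragments, fell as well. Of 5 clamp loader subunits RFC3 and RFC4 fell, and of 12 subunits of polymerases alpha, delta and epsilon POLD1, POLE2 and PRIM1 fell. POLE2 was at -0.97 without Scramble replicate 2. PRIM2, the partner of PRIM1 in primase, lay at the threshold (-1.0, adjusted p = 1e-04) and was not called, but was called with TPM scaling (-1.06), median-ratio scaling (-1.07) or a pseudocount of 0.1 (-1.06), and without Scramble replicate 1 (-1.06) or Si-FIBP#1 replicate 3 (-1.07). The 3 subunits of the single-strand binding protein RPA, at -0.49 to -0.25, were not called, and POLD4 was higher (0.34, adjusted p = 0.032). Fewer cells in S phase and less RNA per cell cannot be told apart in these bulk samples.

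The Cell cycle map held 127 tested genes, of which 35 fell (27.6%) and 1 rose (0.79%), with a median of -0.35. Over all genes 3.25% fell and 2.65% rose. Of its 118 protein-coding genes 34 fell (28.8%), against 3.59% of all protein-coding genes. The mitotic members included CDK1, the kinase that drives entry into mitosis, at 112.76, 113.63 and 116.46 FPKM in Scramble and 31.01, 32.21 and 36.95 FPKM in Si-FIBP#1 (difference -1.75, adjusted p = 3.4e-06). Its partner CCNB1, or cyclin B1, went from 275.37, 282.04 and 285.71 FPKM to 79.89, 85.32 and 87.6 FPKM (difference -1.73, adjusted p = 1.7e-06). CDC20, which turns on the anaphase-promoting complex, fell by 1.88, the spindle checkpoint kinases TTK and BUB1 by 1.89 and 1.56, and the mitotic kinase PLK1 by 1.45. Of factors that license and fire origins, CDC45 fell by 1.86, ORC1 by 1.63 and CDC6 by 1.54. E2F1 and E2F2, which drive genes of S phase, both fell by 1.64. The regulators MYBL2 (-1.90) and FOXM1 (-1.80), which act with the mitotic program, fell in the Cellular senescence map. There 17 of 176 genes were lower (9.66%) and 4 higher (2.27%), against 3.25% and 2.65% over all genes.

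The cyclin E genes, which act at the G1/S transition, went apart. CCNE1 was at 10.59, 11.32 and 11.56 FPKM in Scramble and at 24.65, 25.13 and 25.8 FPKM in Si-FIBP#1 (difference 1.11, adjusted p = 1e-05), and was the gene of the Cell cycle map that rose. CCNE2 was at 14.05, 14.29 and 16.31 FPKM against 5.56, 6.26 and 6.75 FPKM (difference -1.14, adjusted p = 6.5e-05). Of the D cyclins, which act earlier in G1, CCND1 lay at the threshold with means of 114 and 56.4 FPKM (difference -1.0, adjusted p = 4e-06) and was not called. It was called with TPM scaling (-1.05), median-ratio scaling (-1.07) or a pseudocount of 0.1 (-1.01), and without Scramble replicate 3 (-1.01) or Si-FIBP#1 replicate 3 (-1.03). CCND3 was at 0.11 (adjusted p = 0.19). The inhibitors of cyclin-dependent kinases that were called in this map, CDKN1A, CDKN2C and CDKN2D, were lower. Others of the map, CDKN1B (0.48), CDKN1C (0.62), CDKN2A (0.09) and CDKN2B (0.38), lay above 0 and were not called. CDKN1A, or p21, went from 47.29, 47.55 and 49.63 FPKM to 24.21, 21.68 and 21.96 FPKM (difference -1.06, adjusted p = 1.1e-05), and CDKN2C and CDKN2D fell by 1.45 and 1.11. With Si-FIBP#2 the mean of CDKN1A was 54.6 FPKM, and the siRNAs differed (difference -1.24, adjusted p = 1.9e-05).

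In the p53 signaling map 15 of 70 genes fell (21.4%) and 2 rose (2.86%), against 3.25% and 2.65% over all genes. Of its 67 protein-coding genes 14 fell (20.9%), against 3.59% of all protein-coding genes. The members that fell included the cell cycle genes above, PMAIP1, GTSE1 (-1.56), THBS1 (-1.60), a secreted inhibitor of angiogenesis, and DDB2 (-1.17), which finds ultraviolet lesions. CCNE1 was among those that rose. In the Apoptosis map, 9 of 183 genes fell (4.92%) and 3 rose (1.64%), near the 3.25% and 2.65% over all genes. Of its 130 protein-coding genes 8 fell (6.15%) and 1 rose (0.77%), against 3.59% and 2.08% of all protein-coding genes. The genes of 2 BH3-only proteins moved in opposite directions, since PMAIP1 fell and BCL2L11, or BIM, rose from 2.93, 3.49 and 3.25 FPKM to 11.7, 12.42 and 10.67 FPKM (difference 1.58, adjusted p = 1.4e-05). BIRC5, or survivin, and BIRC3 fell by 1.45 and 1.32. The Jak-STAT map had 1 gene higher (1.19%) and 3 lower (3.57%) of 84, against 2.65% and 3.25% over all genes.

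Of the repair maps beyond homologous recombination, Base excision repair had 10 of 49 genes lower, Nucleotide excision repair 8 of 49, Mismatch repair 5 of 44 and the Fanconi anemia pathway 11 of 80. Among protein-coding genes these counts were 7 of 35, 8 of 47, 5 of 25 and 11 of 58. For comparison, 3.25% of all genes and 3.59% of all protein-coding genes were called lower. EPHA5-AS1, a noncoding gene placed in Base excision repair, was the only gene called higher in these 4 maps. LIG1, PCNA and POLD1 stand in the 3 excision and mismatch maps as well as in DNA replication, and every gene that fell in Mismatch repair is a replication gene. Genes outside the DNA replication map also fell, such as the glycosylase NEIL3 (-1.38) and the damage sensor subunit RAD23B (-1.24). In the Fanconi pathway, FANCD2 went from 24.35, 26.32 and 24.14 FPKM to 7.81, 7.13 and 6.53 FPKM (difference -1.67, adjusted p = 5.8e-06). FANCG fell by 1.46, the ubiquitin-conjugating UBE2T by 1.31 and the helicase BRIP1 by 1.09. These 4 repair maps were pooled with DNA replication, Cell cycle, p53 signaling, Pyrimidine metabolism, One carbon pool by folate and the oocyte maps. In these 11 maps 87 of 512 genes fell and 3 rose, where 3.25% of all genes fell and 2.65% rose. The pool was chosen with earlier results known and holds maps picked for a high share called lower. Its excess over all genes is partly set by that choice, so nothing is read from it. In at least 3 of the 11 maps, 16 genes fell.

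In Pyrimidine metabolism 7 of 50 genes fell and none rose, with TYMS, RRM2 and the salvage kinase TK1 (-1.84) ahead of RRM1 (-1.18) and DTYMK (-1.08). TK1 was at 101.67, 87.24 and 91.34 FPKM in Scramble and at 23.59, 25.2 and 27.37 FPKM in Si-FIBP#1. In One carbon pool by folate 4 of 21 genes fell (19.0%) and none rose, and TYMS fell most among them. Of its 18 protein-coding genes 3 fell (16.7%), against 3.59% of all protein-coding genes. The median was -0.43 over the 21 genes and 0.09 over the 18 protein-coding genes. In Purine metabolism 7 of 114 genes fell (6.14%, against 3.25% of all genes) and 3 rose (2.63%, near the 2.65% of all genes). PRPS2 (-1.47) and PFAS (-1.42), a step of purine synthesis, fell beside PRPS1. The polyamine enzyme ODC1 (-1.27) and the amino acid transporter SLC7A5 (-1.43) fell as well.

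The map with the highest median was Systemic lupus erythematosus, which holds histone genes. It had 24 of 77 genes higher (31.2%), 3 lower (3.90%) and a median of 0.54, against 2.65%, 3.25% and 0.07 over all genes. Of 34 clustered histone genes annotated as protein-coding in GENCODE 29, 21 rose, 1 fell, 12 were not called and the median was 1.34. Over all protein-coding genes 2.08% rose and 3.59% fell. Of the 21 histone genes that rose, 3 were below 1 FPKM in every Scramble sample. H2BC12 was at 191.89, 185.4 and 179.08 FPKM in Scramble and at 703.93, 741.6 and 676.35 FPKM in Si-FIBP#1 (difference 1.93, adjusted p = 1.1e-06). H2AC6 went from 16.19, 14.44 and 15.75 FPKM to 67.69, 68.07 and 76.06 FPKM (difference 2.12, adjusted p = 2.1e-06). H3C10 and H2BC4 rose by 2.23 and 2.03. H3C2, whose identifier was not matched in GENCODE 29 and which is not in this count, had means of 0.340 and 3.11 FPKM and passed the filter only through the depleted samples. Of the remaining 8 protein-coding histone genes of the map, which include variants made through the cell cycle, none rose and 2 fell. H2AZ1 went from 752.88, 771.74 and 799.13 FPKM to 301.94, 312.89 and 331.11 FPKM (difference -1.29, adjusted p = 2.1e-06), and H2AX fell by 1.20. Clustered histone genes are near copies of each other, so reads may be split among them, and poly(A) selection captures their mRNAs only in part. Its part in the rise was not tested.

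**Figure D2:**
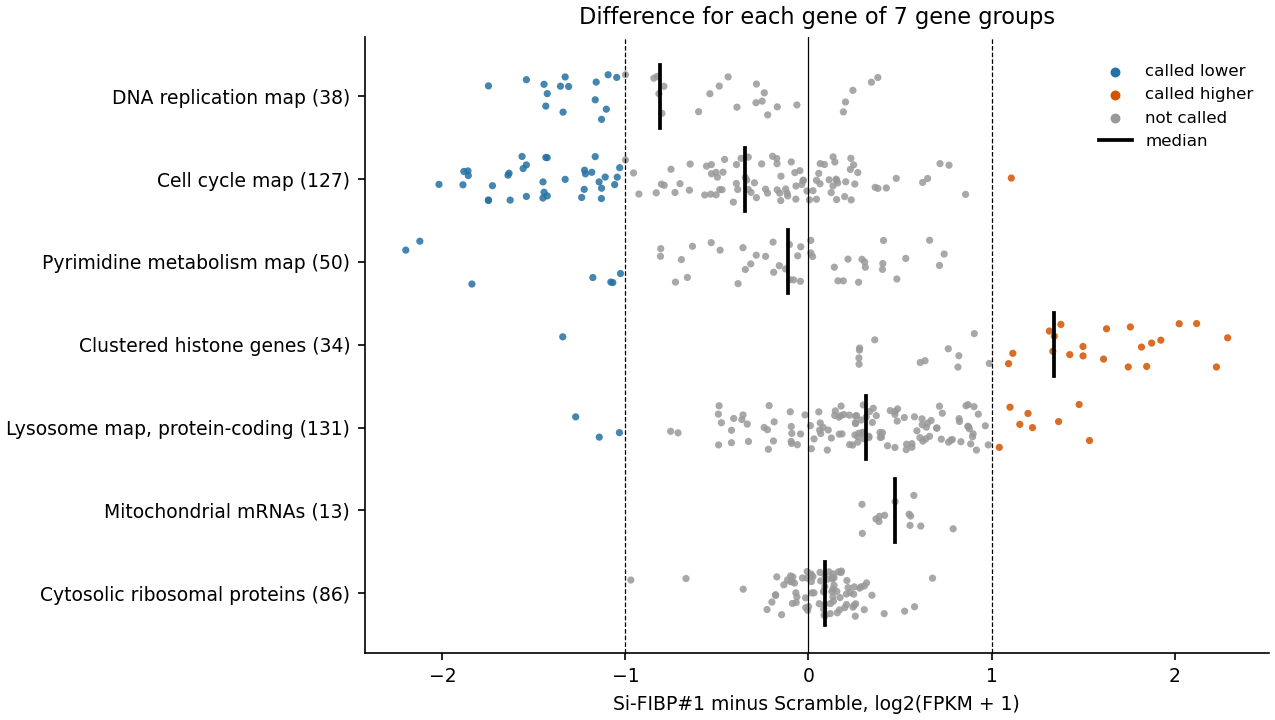
Difference between Si-FIBP#1 and Scramble on the log2(FPKM + 1) scale for each gene of 7 groups, with the number of genes in parentheses. Points are genes, black lines are medians and dashed lines mark 2-fold; DNA replication genes lie to the left (median -0.81), clustered histone genes to the right (median 1.34), and cytosolic ribosomal protein genes near 0 (median 0.09).

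Genes of lysosomal enzymes were among those that rose. The Lysosome map had 131 protein-coding genes tested, of which 8 rose (6.11%, against 2.08% of all protein-coding genes) and 3 fell (2.29%, against 3.59%). The 3 that fell, in the map as the authors assigned it, were LAMP1, AP1M2 (-1.03) and HELLS (-1.14). At an adjusted p below 0.05 alone 77 were higher and 15 lower, with a median of 0.32, where 29.7% of all genes were higher and 21.4% lower and the median was 0.07. The sorting receptor gene IGF2R rose by 1.04 and was at 0.97 with median-ratio scaling. AP1M2 was at -0.94 without Scramble replicate 1 and at -0.95 without Si-FIBP#1 replicate 1. HELLS was at -0.985 without Si-FIBP#1 replicate 2. Each of these values ends the call in that run. SMPD1, acid sphingomyelinase, was at 7.99, 7.44 and 7.58 FPKM in Scramble and at 22.96, 23.4 and 23.1 FPKM in Si-FIBP#1 (difference 1.48, adjusted p = 3.5e-06). The fucosidase FUCA1 rose by 1.54, the glycogen-degrading GAA by 1.37, the acid lipase LIPA by 1.22 and the galactosidase GLB1 by 1.20. Other glycan degradation, a map of 19 genes, had FUCA1, GLB1 and MAN2B2 (1.10) higher, none lower and a median of 0.50. LAMP1, a protein of the lysosomal membrane, went the other way, from 43.57, 41.25 and 40.8 FPKM to 14.78, 17.18 and 18.49 FPKM (difference -1.27, adjusted p = 2.3e-05). With Si-FIBP#2 the mean of LAMP1 was 55.9 FPKM, and the siRNAs differed (difference -1.67, adjusted p = 4.3e-05). The gamma-secretase subunits APH1B (1.57) and NCSTN (1.29) rose in the Notch map, where 2 of 61 genes (3.28%) were called higher and none lower, near the 2.65% over all genes. EDEM3 (1.55), SIL1 (1.31) and MAN1B1 (1.09), which act on glycoproteins or chaperones of the endoplasmic reticulum, rose in the map of protein processing there, which had 7 of 243 genes higher (2.88%, near the share over all genes) and 2 lower.

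Single adhesion and matrix genes were called in each direction. Among 65 protein-coding genes of ECM-receptor interaction, 5 rose and 5 fell (7.69% each, against 2.08% and 3.59% of all protein-coding genes). ITGA5, the fibronectin receptor subunit, went from 18.5, 22.34 and 20.18 FPKM to 60.47, 64.61 and 52.95 FPKM (difference 1.5, adjusted p = 1.8e-05), whereas ITGA10, a collagen receptor subunit, went from 6.01, 5.5 and 4.52 FPKM to 1.33, 0.68 and 0.80 FPKM (difference -1.72, adjusted p = 0.00012). COL4A5 rose by 1.42, and THBS1 and SDC4 fell by 1.60 and 1.16. The calls of the matrix genes COL6A1 and LAMC1, which were higher, ended with median-ratio scaling (0.987 and 0.997). THBS1 fell further with Si-FIBP#2, to a mean of 2.75 FPKM against 9.94 FPKM with Si-FIBP#1 (difference 1.55, adjusted p = 0.00031). In Focal adhesion, with 11 higher and 10 lower of 248 (6 and 8 of 164 protein-coding genes, or 3.66% and 4.88%, near the shares of all protein-coding genes), CAV1, the coat protein of caveolae, fell by 1.68 and the actin crosslinker FLNA by 1.41. In TGF-beta signaling 3 of 75 genes rose (4.0%) and 4 fell (5.33%), near the 2.65% and 3.25% over all genes. The receptor TGFBR2 (1.33) and the matrix genes FBN1 and LTBP1 (1.16), which store the ligand, rose, and the target ID1 fell from 289.92, 271.67 and 241.41 FPKM to 123.6, 78.26 and 87.66 FPKM (difference -1.49, adjusted p = 0.00023).

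Signalling maps near the background of 5.90% were also read. The Hippo map had 11 genes higher and 11 lower of 316 (3.48% each), near the 2.65% and 3.25% over all genes. Among its 166 protein-coding genes 2 were higher (1.20%) and 10 lower (6.02%), against 2.08% and 3.59% of all protein-coding genes. CCN2, a target of YAP, was among the 10 lower, at 49.91, 44.75 and 45.25 FPKM against 16.61, 15.83 and 16.1 FPKM (difference -1.47, adjusted p = 3.6e-06). FGF1, the ligand that FIBP binds, was at 2.96, 3.14 and 2.13 FPKM against 0.76, 0.72 and 0.62 FPKM, and it passed the filter only through Scramble, so its values are a description. In the Wnt map 11 genes were higher (3.62%) and 3 lower (0.99%) of 304, and in the mTOR map 12 (3.61%) and 3 (0.90%) of 332. Of their protein-coding genes 2 were higher and 2 lower in each map. These were 1.27% each for Wnt and 1.12% each for mTOR, against 2.08% and 3.59% of all protein-coding genes. Most of the genes counted higher in these maps are noncoding RNAs such as HULC (1.13), LINC00467 (1.39) and MAN1B1-DT (1.36). The Wnt inhibitor DKK1 fell by 1.25. In the NF-kappa B map 5 of 71 genes fell (7.04%, against 3.25% of all genes) and none rose. BIRC3 and PLAU (-1.14), or urokinase, were among those that fell.

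The maps of gene expression, Proteasome and Glycolysis were counted as well. Over all genes 2.65% were called higher and 3.25% lower, and over protein-coding genes 2.08% and 3.59%. None of the 86 protein-coding genes of cytosolic ribosomal proteins and none of the 43 of mitochondrial ribosomal proteins was called. With the adjusted p alone, 39 of the former were higher and 11 lower, and 15 and 8 of the latter, against 29.7% higher and 21.4% lower over all genes. The Spliceosome map had 1 gene higher (0.61%) and 3 lower (1.84%) of 163. U2AF2, the splicing factor that reads the polypyrimidine tract, fell from 162.3, 144.66 and 150.72 FPKM to 52.58, 46.69 and 49.73 FPKM (difference -1.60, adjusted p = 3.4e-06). The Proteasome map had 1 higher and 1 lower of 51 (1.96% each), near the shares over all genes. Glycolysis had 1 higher and 1 lower of 49 (2.04% each), also near those shares. LDHA, which turns pyruvate into lactate, fell by 1.14 from a mean of 482 to 218 FPKM.

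RNAs of the mitochondrial genome took a larger share of the values in depleted cells. They made up 10.4%, 10.1% and 10.4% of the summed FPKM in Scramble and 14.2%, 14.6% and 14.4% in Si-FIBP#1, with no overlap between groups. All 13 mitochondrial mRNAs were higher at an adjusted p below 0.05, by 0.29 to 0.79 on the log2 scale, and none passed 2-fold. MT-CO3, a subunit of cytochrome c oxidase, showed the largest of these differences (0.79, adjusted p = 4.4e-06), with means of 7039 ± 98.9 and 12180 ± 447 FPKM (SD, n = 3 each). MT-ATP8 gained the most FPKM of any gene, from a mean of 20505 to 30222 FPKM. The ribosomal RNA MT-RNR2 passed 2-fold (1.03), although it was at 0.99 with TPM scaling and 0.96 with median-ratio scaling, and at 0.99 without Si-FIBP#1 replicate 3. Of 111 nuclear protein-coding genes of Oxidative phosphorylation, 49 were higher and 5 lower at an adjusted p below 0.05, against 29.7% and 21.4% over all genes. Their median was 0.15, against 0.07 over all genes, and COX7B2 passed 2-fold (1.27). The summed FPKM of all other genes was 702671 to 706316 in Scramble and 687106 to 698646 in Si-FIBP#1. With TPM or median-ratio scaling the median difference over all genes was 0.03 or 0.00, and the part of the mitochondrial share in single differences was not tested.

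**Figure D3:**
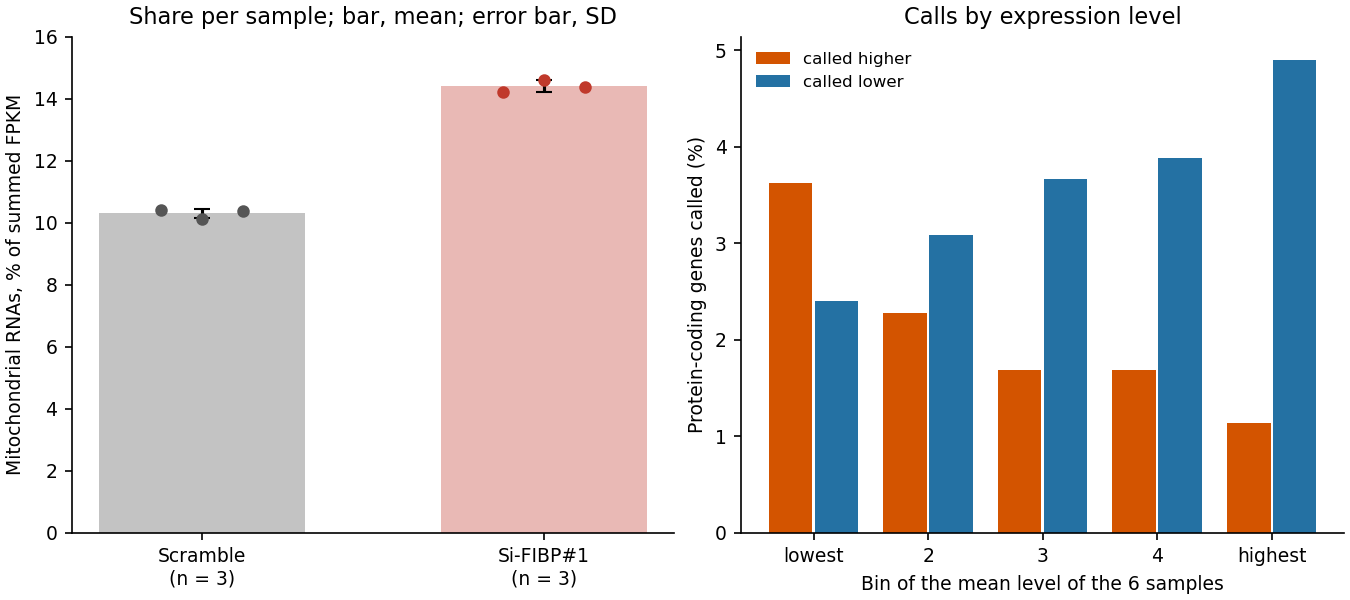
Left, share of RNAs of the mitochondrial genome in the summed FPKM of each sample (points), with mean and SD; the 3 Scramble samples are at 10.1% to 10.4% and the 3 Si-FIBP#1 samples at 14.2% to 14.6%. Right, share of protein-coding genes called higher (orange) or lower (blue) in 5 bins of mean level; the share higher goes from 3.63% to 1.14% and the share lower from 2.40% to 4.90% from the lowest to the highest bin.

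Finally, Si-FIBP#1 was set against Si-FIBP#2 for the named genes, in a fit of all 9 samples that compares the depleted groups directly. Over all genes, 80 (0.556%) differed by more than 2-fold between the siRNAs. Most of the genes described above were not among these, but many differed by less. MCM7 was lower with Si-FIBP#1 (97.1 FPKM) than with Si-FIBP#2 (135 FPKM; difference -0.47, adjusted p = 0.00027), as were TYMS (-0.67, adjusted p = 0.00093) and CDC20 (-0.36, adjusted p = 0.0073). Other members showed no difference beyond the spread, such as MCM6 (0.00, adjusted p = 1.0), H2BC5 (0.00, adjusted p = 0.99) and LIPA (-0.04, adjusted p = 0.67). GINS1 was far lower with Si-FIBP#1 than with Si-FIBP#2, where its mean was 6.11 FPKM (difference -1.47, adjusted p = 0.00022). STC1 was higher with Si-FIBP#2, at a mean of 289 FPKM (difference -1.29, adjusted p = 0.00035). The cause of these differences was not tested.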

How the data were processed

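Samples were grouped by their labels into 3 Scramble and 3 Si-FIBP#1 samples of H1299 cells and, beside named genes, 3 Si-FIBP#2 samples, all measured by RNA-seq. The authors deposited 1 table per sample with a value per Ensembl or assembled transcript. These deposited values were read as FPKM from their range and their dependence on length, since the unit is not given in the sources used here, nor are genome build and annotation. The submitters' processing notes name HISAT2 and StringTie.

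FPKM were summed per gene, and a gene was kept when 3 or more of the 6 samples reached 1 FPKM. Kept genes were tested with limma 3.58.1 (R 4.3.3, linear model, empirical Bayes with trend, two-sided) on log2(FPKM + 1), which understates changes of low genes. Adjusted p-values follow Benjamini and Hochberg, over all kept genes. A call needed a difference above 1 on the log2 scale and an adjusted p below 0.05. The code was tested on simulated data. Depth was estimated from the steps of low FPKM values and gives no counting interval, so precision is the spread between 3 samples.

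KEGG maps came from the pathway column of the tables and are described by counts and medians, without a set test. Named genes were FIBP, the 15 largest rises and 15 largest falls without overlap, the 10 most abundant genes, the 10 largest gains and losses of FPKM, and called genes of fixed maps and of the maps with the highest shares. The members and lists were chosen with earlier results of these data known. Gene classes and coordinates are from GENCODE 29 (GRCh38), with 14033 tested genes matched, and promoters from RefSeq (GRCh38.p14). The subgroups of a map (helicase, histone, ribosomal and mitochondrial genes) were formed by gene symbol. Alternatives were TPM or median-ratio scaling, a pseudocount of 0.1, no filter or one of 5 FPKM, a fit of 9 samples, no trend, no fold threshold, Ensembl transcripts only, a block for replicate number, and each sample left out. A count of protein-coding genes only was added after the data were seen. The remaining software was Python 3.11.15, pandas 2.3.3, numpy 2.4.6 and matplotlib 3.10.9. Some members of the lists are not reported here.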

Additional observations from a re-analysis of the deposited data

Results flagged for a closer look

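The genes below were marked because their response differed between the siRNAs by more than 2-fold in the direct contrast, Si-FIBP#1 minus Si-FIBP#2, of the limma fit of 9 samples. Both siRNAs were set against the same 3 Scramble samples, and no cause of a difference was tested. GINS1 was lower with Si-FIBP#1 (-1.47, adjusted p = 0.00022), as was AC087632.2 (-1.14, adjusted p = 0.00053). CDKN1A (-1.24, adjusted p = 1.9e-05), PERP (-1.29, adjusted p = 0.00013) and LAMP1 (-1.67, adjusted p = 4.3e-05) fell with Si-FIBP#1 and had means of 54.6, 34.7 and 55.9 FPKM with Si-FIBP#2, against 48.2, 29.4 and 41.9 FPKM in Scramble. PERP was at -0.93 against Scramble without Si-FIBP#1 replicate 1, which ends its call there. STC1 rose with Si-FIBP#1 and was higher with Si-FIBP#2 (-1.29, adjusted p = 0.00035). THBS1 was higher with Si-FIBP#1 (1.55, adjusted p = 0.00031), as was AC090498.1 (1.05, adjusted p = 0.0017). KLRC3 had a difference of 1.17, but it passed the filter only through Si-FIBP#1, the group in which it was high, so this is a description.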

How the results depend on the processing

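FIBP kept its direction and its call in every alternative run, from -4.21 with Ensembl transcripts only to -3.26 without Si-FIBP#1 replicate 3. The count of called genes was 1412 (758 higher, 654 lower) with a pseudocount of 0.1, and 231 genes were higher with a filter of 5 FPKM. Without a fold threshold 7358 genes passed (4277 higher, 3081 lower), with 31 lower in DNA replication, 75 in Cell cycle, 37 in p53 signaling, 40 in Fanconi anemia and 22 in Pyrimidine metabolism, and 41 higher in Systemic lupus erythematosus and 89 in Lysosome. With median-ratio scaling 857 genes were called, 317 of them higher. Leaving out 1 sample gave 857 to 894 called genes (385 to 430 higher, 464 to 484 lower), FIBP differences from -3.62 to -3.26, and per map 14 to 16 lower genes in DNA replication, 34 to 36 in Cell cycle, 13 to 16 in p53 signaling, 10 to 11 in Fanconi anemia and 6 to 7 in Pyrimidine metabolism, and 23 to 27 higher in Systemic lupus erythematosus and 9 to 12 in Lysosome. Samples of the same replicate number did not deviate together in every pair (correlations 0.16, -0.01 and 0.12). Scramble replicates 1 and 3 deviated most like the Si-FIBP#1 sample of their own number, and Scramble replicate 2 did not. With 3 samples per group these values cannot tell whether the numbers pair the samples. With the replicate block 853 genes were called (384 higher, 469 lower), and it changed the call of no named gene. Differences near 0 turned sign for RPL41 (-0.0297 with TPM and -0.0588 with median-ratio scaling), NEU3 (-0.0166 with median-ratio scaling, -0.0011 without Si-FIBP#1 replicate 3) and AC108488.2 (-0.0446 with Ensembl transcripts only). RPL32P29 lost its call without the filter. The causes were not tested. FPKM carry no counting error, so low genes are limited by 3 samples per group.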
